A study of Mus musculus with 6 samples.

Results

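The peroxisome is the organelle that shortens very long and branched fatty acids, oxidises hydroxyacids and D-amino acids and starts the synthesis of ether lipids. It holds no DNA, so every one of its proteins is made in the cytosol and brought in by the peroxins, the products of the Pex genes. Hepatocytes are rich in peroxisomes, and in rodent liver many of the genes for their fatty acid enzymes answer to the nuclear receptor PPAR-alpha.

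The genes described here are 31 genes of peroxisome assembly and of the peroxisomal membrane and matrix, chosen by name from a list and found by their Ensembl identifiers. All 31 were among the 32061 genes of the counts table, and 30 of them were among the 12949 genes with enough counts to be tested. They comprise 13 peroxins and 18 further genes for transporters and enzymes, of which 17 could be tested. RNA came from hepatocytes isolated by collagenase perfusion and a density gradient from mice of 10 to 12 weeks of age. The 3 samples called senescent were from mice with the AhCre transgene and Mdm2fl/fl, a conditional allele of the gene for the ubiquitin ligase that keeps p53 low. The 3 samples called healthy were from mice described as AhCre-, with no Mdm2 genotype given in the sources used here. Mice of both groups had received β-naphthoflavone in corn oil at 20 mg/kg, for 48 h. The promoter of AhCre answers to this ligand of the aryl hydrocarbon receptor, so the ligand itself is shared by both groups, whereas Cre and the loss of Mdm2 cannot be told apart.

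Libraries held 29992707 to 32210591 counts in the senescent group and 28799392 to 33267299 in the healthy group. Mdm2 had 464, 463 and 501 CPM (counts scaled to a common library size) in the senescent libraries, against 19.03, 22.7 and 22.0 CPM in the healthy libraries. A count over the whole gene does not show whether its floxed exons were lost. Xist was present in all 6 libraries and 4 Y-linked genes had 0 counts in each. Of 10 hepatocyte markers, such as albumin and transthyretin, 6 were called lower (edgeR quasi-likelihood test, adjusted p under 0.05; 20.7% of all tested genes were lower and 20.4% higher), with 3 lower without senescent replicate 1, without senescent replicate 3 or with the exonic length trend removed. The 4 not called were Apob, Cps1, Hnf4a and Fga, with log2 fold changes of 0.27, 0.14, 0.02 and -0.47. The sum of the 10 hepatocyte markers was 76247 to 91737 CPM in senescent libraries, against 128691 to 145612 CPM in healthy libraries. Kupffer cell and macrophage markers summed to 241 to 488 CPM in senescent libraries, against 98.1 to 267 CPM in healthy libraries. Of these 12 markers 2 were called higher, but 0 without senescent replicate 3, 6 without senescent replicate 2, 5 without healthy replicate 2, 6 by DESeq2, 4 by limma-voom, 7 with no filter or with the length trend removed and 10 with total library size. Stellate cell markers summed to 28.4 to 43.3 CPM, against 11.7 to 18.8 CPM. Of these 12 markers 11 were tested and 5 called higher, 2 without senescent replicate 3 and 3 without healthy replicate 3. Acta2 was not tested and had fewer than 3 counts in every library. It had 0 counts in every healthy library and 0.0558, 0.0291 and 0 CPM in senescent replicates 1, 2 and 3. Sinusoidal endothelial markers summed to 150 to 196 CPM in senescent libraries, against 128 to 159 CPM in healthy libraries, with 2 of 12 called higher, 1 without any one of senescent replicates 1 and 3 and healthy replicates 1 and 3, and 7 with total library size. Cholangiocyte markers summed to 20.5 to 27.2 CPM, against 15.7 to 23.9 CPM. Of these 10 markers 6 were tested, with 3 called higher, 5 without healthy replicate 2, and 1 called lower. The number called lower ran from 0 to 2 with 1 library left out. It was 2 without senescent replicate 1 and 0 without senescent replicate 2, senescent replicate 3, healthy replicate 1 or healthy replicate 2. Lymphocyte and neutrophil markers summed to 2.57 to 3.01 CPM in senescent libraries, against 0.495 to 1.65 CPM in healthy libraries. Of these 10 markers only 2, S100a8 and S100a9, had enough counts to be tested, and both were called higher. The part of these markers in the results on peroxisome genes was not tested, and in bulk RNA fewer cells of a type and less RNA per cell cannot be told apart.

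Most matrix enzymes reach the peroxisome by a short signal at the very end of the protein, which the receptor Pex5 reads. The last 24 coding bases before the stop codon are shown for 6 enzymes because they set those that fell beside those that did not, and because the signal lies there (GENCODE M21 on GRCm38, coding strand, 5′ to 3′, final 3 codons in capitals).
Hao2: gacctgattcagttcTCCAGATTA
Pecr: tcttttaagaagaaaGCCAAGCTC
Mlycd: cagttccagaacaacAGCAAACTC
Nudt7: tggagatattctttaAGCAAGTTG
Hao1: aatcctttggctgttTCCAAGATC
Lonp2: cctggtctcattgacAGCAAACTA
The textbook pattern is a codon for a small residue (serine, alanine or cysteine), then one for a basic residue (lysine, arginine or histidine), then one for leucine or methionine. It stood at the end of 10 of the 14 matrix enzyme genes, namely Hao2, Pipox, Dao, Ddo, Pecr, Mlycd, Nudt7, Nudt19, Lonp2 and Gnpat. Of the other matrix genes, Hao1, Phyh, Hacl1 and Agps did not have it, nor did any of the 13 peroxins or the 4 genes for membrane proteins. Over all genes with a complete coding sequence the pattern ended 108 of 21523, or 0.502%. The pattern was present in genes that fell, such as Hao2 and Mlycd, and also in Lonp2, Gnpat and Ddo, which were not called.

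Among the peroxisome genes more were called lower than higher in senescent hepatocytes. Of the 30 tested, 15 fell and 2 rose by that test, while 20.7% of all tested genes fell and 20.4% rose. The median log2 fold change, senescent minus healthy, was -0.37 over the 30 genes and 0.01 over all tested genes. Together the genes reached 2333 ± 187 CPM in senescent libraries and 3825 ± 334 CPM in healthy libraries (SD, n = 3 each), a ratio of 0.610. On the same scale the sum of all tested genes had a ratio of 0.807 and that of the hepatocyte markers 0.597. Most of the marker sum was albumin, and single markers ran from 0.356 for Tat to 1.21 for Apob. In 20 genes every senescent library lay below every healthy one, and in 2 every senescent library lay above, against 27.2% and 26.8% of all tested genes, or 53.9% in either direction. Scaling moved the small differences. TMM factors gave 2644 genes higher and 2680 lower, and the total library size in their place gave 4861 higher and 1285 lower. The median of all tested genes then stood at 0.33 and that of the peroxisome genes at -0.06, with 4 of them higher and 10 lower, and the 5 falls no longer called were all of peroxins. Without senescent replicate 3, 1489 genes were called lower in all, and 11 of the peroxisome genes. The other 10 falls were called under all 16 alternatives, which include leaving out each of the 6 libraries.

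**Figure D1:**
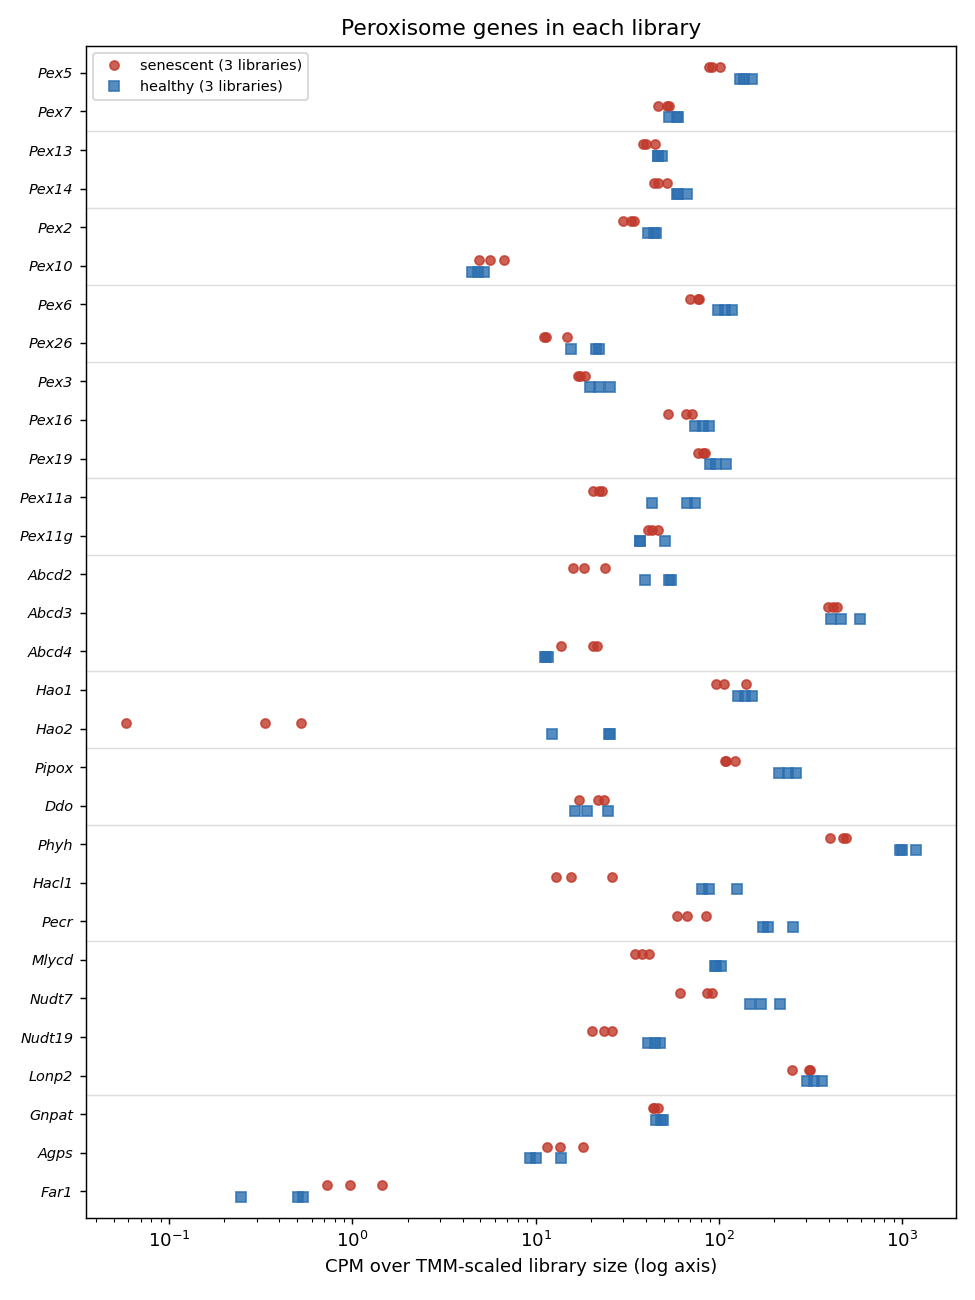
CPM of the 30 tested peroxisome genes in each library on a log axis, grouped by role, with red circles for the 3 senescent and blue squares for the 3 healthy libraries. Hao2 shows the widest gap, at 0.0579 to 0.524 CPM in senescent libraries against 12.2 to 25.5 CPM in healthy libraries, and Far1 has fewer than 1.5 CPM in every library.

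Of the 4 peroxins that receive and dock matrix proteins, Pex5 and Pex14 fell. Pex5, the receptor for the signal at the end of matrix proteins, had 102, 91.8 and 88.6 CPM in senescent libraries, against 151, 138 and 131 CPM in healthy libraries, replicates 1, 2 and 3 being given in this order here and for every gene. The groups did not overlap, and the log2 fold change was -0.57 ± 0.11 (SE; edgeR adjusted p = 0.0048). Pex7, which carries in the few enzymes with a signal near their start, averaged 50.6 ± 3.65 CPM in senescent and 57.6 ± 3.59 CPM in healthy libraries (SD, n = 3 each), with an edgeR adjusted p of 0.21. Of the docking pair in the membrane, Pex14 had 52.0, 46.8 and 44.5 CPM in senescent libraries, against 67.1, 59.7 and 59.1 CPM in healthy libraries. Its groups were also separate, with a log2 fold change of -0.38 ± 0.11 (edgeR adjusted p = 0.029), and the call was lost without any one of senescent replicate 2, senescent replicate 3, healthy replicate 1 or healthy replicate 2, with adjusted p up to 0.16. Its partner Pex13 had a log2 fold change of -0.20 ± 0.11 (edgeR adjusted p = 0.17).

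Of the 4 peroxins that recycle the import receptor, Pex2, Pex6 and Pex26 fell. Pex2, a ubiquitin ligase subunit that tags the receptor for release, had 29.9, 34.4 and 33.04 CPM in senescent libraries, against 45.1, 41.0 and 44.2 CPM in healthy libraries. No senescent library reached the healthy range, and the log2 fold change was -0.42 ± 0.11 (edgeR adjusted p = 0.015). Pex10, a ligase subunit of the same complex, had 4.88 to 6.70 CPM in senescent and 4.48 to 5.23 CPM in healthy libraries, and the groups overlapped. Pex6, an ATPase that pulls the receptor back out, had 77.1, 78.0 and 69.8 CPM in senescent libraries, against 99.5, 117 and 107 CPM in healthy libraries. Its log2 fold change was -0.53 ± 0.11 (edgeR adjusted p = 0.0066). Pex26, the membrane anchor of that ATPase, had 11.1, 14.9 and 11.4 CPM in senescent libraries, against 21.2, 15.5 and 22.1 CPM in healthy libraries. Senescent replicate 2 and healthy replicate 2 nearly met, and the log2 fold change was -0.66 ± 0.18 (edgeR adjusted p = 0.019). The calls of Pex2 and Pex26 were lost without senescent replicate 1 and without senescent replicate 3, and that of Pex6 without senescent replicate 3, with adjusted p of at most 0.092.

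Of the 3 genes that insert membrane proteins into the peroxisome, 0 passed the test in edgeR, DESeq2 or limma-voom. All 3 had an unadjusted p under 0.05 in edgeR, which was not counted over all tested genes. In each every senescent library lay below every healthy one, as in 27.2% of all tested genes. The docking factor Pex3 had a log2 fold change of -0.35 ± 0.12, Pex16, its partner in the membrane, -0.36 ± 0.14, and the chaperone Pex19 -0.29 ± 0.11. Their edgeR adjusted p-values were 0.054, 0.076 and 0.075.

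The genes of division parted. Pex11a, which elongates the membrane before division and is a known target of PPAR-alpha in rodent liver, had 23.1, 20.7 and 22.3 CPM in senescent libraries, against 42.9, 67.4 and 74.3 CPM in healthy libraries. The senescent libraries were close together and all far below the healthy ones, with a log2 fold change of -1.48 ± 0.20 (edgeR adjusted p = 0.00074). Its paralog Pex11g had 43.0, 46.6 and 41.0 CPM in senescent libraries, against 51.0, 37.2 and 37.0 CPM in healthy libraries. These groups overlapped, and the log2 fold change of 0.06 ± 0.15 was not called (edgeR adjusted p = 0.77). Over all 13 peroxins 6 fell and 0 rose, against 20.7% and 20.4% of all tested genes. By DESeq2 and limma-voom 0 rose as well, and also at an unadjusted p under 0.05, which was not counted over all tested genes. The number that fell was 2 without senescent replicate 3, Pex5 and Pex11a, and with total library size 1, Pex11a, fell and 1, Pex10, rose. The sum of the peroxins was 587 ± 28.7 CPM in senescent and 789 ± 7.68 CPM in healthy libraries (SD, n = 3 each).

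**Figure D2:**
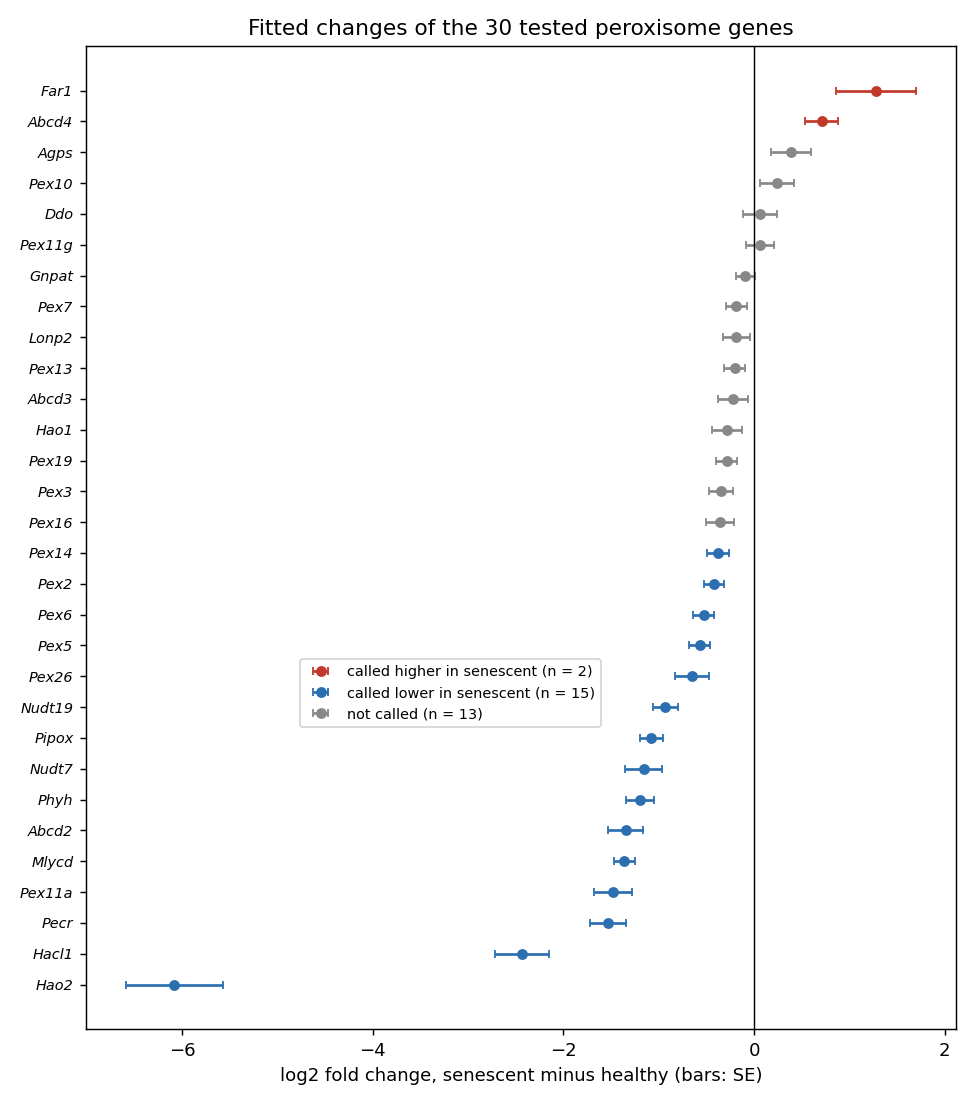
Log2 fold change, senescent minus healthy, of the 30 tested peroxisome genes with SE bars, ordered by size; red marks genes called higher, blue genes called lower and grey genes not called. Hao2 lies at -6.08 and Hacl1 at -2.43, and Abcd4 and Far1 are the genes called higher.

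Among the membrane transporters of the ABC subfamily D, the 3 genes went separate ways. Abcd2, which imports very long and polyunsaturated fatty acyl-CoAs, had 23.8, 18.3 and 16.1 CPM in senescent libraries, against 53.2, 39.5 and 55.1 CPM in healthy libraries. The groups did not overlap, and the log2 fold change was -1.34 ± 0.18 (edgeR adjusted p = 0.00085). Abcd3, an importer of branched and dicarboxylic acyl-CoAs and of bile acid precursors, had 393 to 439 CPM in senescent and 412 to 588 CPM in healthy libraries. Its groups overlapped, and the log2 fold change of -0.23 ± 0.16 was not called (edgeR adjusted p = 0.28). Abcd4 belongs to the subfamily by sequence but is known for moving vitamin B12 out of lysosomes. It had 13.8, 21.5 and 20.7 CPM in senescent libraries, against 11.7, 11.4 and 11.2 CPM in healthy libraries, with a log2 fold change of 0.71 ± 0.17 (edgeR adjusted p = 0.013).

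The widest difference was in Hao2, which encodes an oxidase of long-chain 2-hydroxyacids (ENSMUSG00000027870, GRCm38 chromosome 3, 98874521 to 98893239, minus strand). It had 12, 18 and 2 counts in senescent replicates 1, 2 and 3, against 758, 314 and 713 counts in healthy replicates 1, 2 and 3. On the CPM scale these were 0.335, 0.524 and 0.0579 in senescent libraries and 25.5, 12.2 and 25.2 in healthy libraries, so healthy libraries averaged 68.6 times as much. Senescent replicate 3 lay below the 3 counts that a count of 0 allows, and the fitted log2 fold change was -6.08 ± 0.51 (edgeR adjusted p = 6.1e-05). Hao1, its paralog and the liver's glycolate oxidase, had 107, 141 and 95.9 CPM in senescent libraries, against 140, 153 and 127 CPM in healthy libraries. Senescent replicate 2 fell within the healthy range, and the log2 fold change of -0.29 ± 0.16 was not called (edgeR adjusted p = 0.18).

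The 250 bases before the RefSeq transcription start (GRCm38.p6) are shown for this pair and for Hacl1 and Pecr, enzymes whose RNA fell, so that the letters can be read beside the values. Capitals mark GC boxes (GGGCGG) and CCAAT boxes (CCAAT) on either strand.
Hao2 promoter, chr3:98893231-98893480, minus strand: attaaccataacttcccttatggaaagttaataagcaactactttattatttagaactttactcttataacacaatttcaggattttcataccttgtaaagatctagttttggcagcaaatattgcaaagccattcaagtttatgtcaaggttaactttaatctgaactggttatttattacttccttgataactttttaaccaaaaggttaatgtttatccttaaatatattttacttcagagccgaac
Hao1 promoter, chr2:134554353-134554602, minus strand: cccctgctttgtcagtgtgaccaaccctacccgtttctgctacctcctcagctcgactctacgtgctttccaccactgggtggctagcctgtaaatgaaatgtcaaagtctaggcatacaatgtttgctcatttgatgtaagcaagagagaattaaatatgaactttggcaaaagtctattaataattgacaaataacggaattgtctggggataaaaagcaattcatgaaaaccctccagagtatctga
Hacl1 promoter, chr14:31640966-31641215, minus strand: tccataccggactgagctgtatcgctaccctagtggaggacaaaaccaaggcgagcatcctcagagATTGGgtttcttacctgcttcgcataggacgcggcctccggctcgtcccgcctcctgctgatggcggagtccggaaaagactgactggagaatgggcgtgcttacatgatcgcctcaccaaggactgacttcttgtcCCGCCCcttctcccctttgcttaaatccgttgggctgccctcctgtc
Pecr promoter, chr1:72284322-72284571, minus strand: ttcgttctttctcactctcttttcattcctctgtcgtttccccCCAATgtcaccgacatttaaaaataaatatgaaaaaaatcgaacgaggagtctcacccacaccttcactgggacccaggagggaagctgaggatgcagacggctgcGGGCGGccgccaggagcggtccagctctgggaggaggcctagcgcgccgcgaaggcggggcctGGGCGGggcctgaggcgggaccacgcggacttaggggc
The Hao2 stretch had 28.4% G and C, the lowest of the 27 genes with a RefSeq promoter, whose median was 56.4%, and it held neither box. Hao1 had 41.6% and also neither box, whereas Hacl1 held a GC box and a CCAAT box and Pecr 2 GC boxes and a CCAAT box. Over the 35 promoter sequences of these genes, 17 held GGGCGG, against 32.742% of 32851 mouse promoters, and 11 held CCAAT, against 33.85%. The direct repeat of AGGTCA with 1 base between its copies, which PPAR-alpha and its partner RXR bind, was found with at most 2 mismatches in 0 of the 35, against 3.236% of all promoters, both strands being searched. The single site AGGTCA, which is part of that repeat, was in 3 of the 35, against 14.024%. A window of this length does not show whether such sites lie elsewhere in the genes.

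The 3 enzymes of alpha-oxidation and enoyl-CoA reduction, Phyh, Hacl1 and Pecr, fell. Phyh, the hydroxylase that starts the alpha-oxidation of phytanic acid, had 494, 477 and 406 CPM in senescent libraries, against 1190.5, 978 and 994 CPM in healthy libraries. It was the most abundant of the 31 genes per length in both groups, and its log2 fold change was -1.20 ± 0.15 (edgeR adjusted p = 5e-04). Hacl1, the lyase of the following cleavage step, had 26.2, 15.6 and 12.9 CPM in senescent libraries, against 126, 88.2 and 80.8 CPM in healthy libraries. All senescent values lay far under the healthy range, with a log2 fold change of -2.43 ± 0.28 (edgeR adjusted p = 0.00038). Pecr, which reduces trans-2-enoyl-CoAs and is able to act on phytol-derived chains, had 85.1, 67.1 and 59.0 CPM in senescent libraries, against 253, 185 and 174 CPM in healthy libraries. Its log2 fold change was -1.53 ± 0.19 (edgeR adjusted p = 0.00052), and without any one library the fold changes of these 3 enzymes stayed between -2.75 and -1.08.

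Of the amino acid oxidases, Pipox fell, Ddo was not called and Dao was not detected. Pipox, which oxidises pipecolic acid and sarcosine, had 109, 122 and 108 CPM in senescent libraries, against 262, 239.6 and 214 CPM in healthy libraries. The groups did not overlap, and the log2 fold change was -1.08 ± 0.12 (edgeR adjusted p = 0.00034). Ddo, the D-aspartate oxidase, had 17.3 to 23.7 CPM in senescent libraries and 16.5 to 24.8 CPM in healthy libraries. Dao, the D-amino acid oxidase best known from kidney and brain, had 0 counts in all 6 libraries. A count of 0 allows up to 3 counts, which is 0.0837 to 0.0874 CPM in senescent libraries and 0.101 to 0.117 CPM in healthy libraries, for counting error only.

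Genes that turn over CoA esters fell together, and the protease of the matrix was not called. Mlycd, the malonyl-CoA decarboxylase found in peroxisomes, mitochondria and cytosol, had 41.8, 37.8 and 34.8 CPM in senescent libraries, against 95.1, 102 and 96.1 CPM in healthy libraries. Its replicates were tight in both groups, and the log2 fold change was -1.36 ± 0.11 (edgeR adjusted p = 6.1e-05). Nudt7, a hydrolase of CoA and its esters, had 91.7, 86.4 and 61.0 CPM in senescent libraries, against 216, 169 and 148 CPM in healthy libraries, a log2 fold change of -1.16 ± 0.20 (edgeR adjusted p = 0.0023). Nudt19, another hydrolase of this kind, had 26.2, 20.4 and 23.6 CPM in senescent libraries, against 44.6, 47.8 and 41.2 CPM in healthy libraries, a log2 fold change of -0.93 ± 0.13 (edgeR adjusted p = 0.00083). In neither hydrolase did the groups overlap. Lonp2, the protease that clears damaged matrix proteins, had 251 to 316 CPM in senescent and 304 to 364 CPM in healthy libraries, which overlapped (edgeR adjusted p = 0.31).

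None of the 3 genes that start ether lipid synthesis was called lower. Gnpat, the acyltransferase of the opening step, averaged 44.9 ± 1.63 CPM in senescent and 47.9 ± 2.09 CPM in healthy libraries (SD, n = 3 each; edgeR adjusted p = 0.49). Agps, the alkyl synthase that follows, averaged 14.4 ± 3.43 CPM in senescent and 11.02 ± 2.37 CPM in healthy libraries (SD, n = 3 each; edgeR adjusted p = 0.17). Both groups overlapped in each gene. Far1, a reductase that supplies the fatty alcohol, had only 35, 25 and 50 counts in senescent libraries, against 16, 13 and 7 counts in healthy libraries. Its log2 fold change of 1.28 ± 0.42 was called higher (edgeR adjusted p = 0.039), and the call was lost without any one library other than senescent replicate 2, with an adjusted p of up to 0.14, and also with the replicate number as a block (edgeR adjusted p = 0.086). Of these 3 genes 0 were lower by edgeR, against 20.7% of all tested genes, and 0 by DESeq2 or limma-voom. At an unadjusted p under 0.05 in edgeR 0 were lower too, which was not counted over all tested genes.

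Across the 18 genes other than peroxins, 9 fell and 2 rose, against 20.7% and 20.4% of all tested genes. The median log2 fold change of the 17 tested was -0.93. Their sum with the untested gene was 1746 ± 159 CPM in senescent and 3037 ± 333 CPM in healthy libraries (SD, n = 3 each). At least 2-fold lower and called were 9 of the 30 tested genes, namely Hao2, Hacl1, Pecr, Pex11a, Mlycd, Abcd2, Phyh, Nudt7 and Pipox, against 6.94% of all tested genes. Senescent replicate 1 had 24, senescent replicate 2 had 23 and senescent replicate 3 had 26 of the 30 genes below their healthy mean. This was not counted over all tested genes, so these numbers do not set the peroxisome genes apart. Parts of some genes are also annotated to another gene, not analysed here, and the sources used here do not give the strand setting of the counting. The shared part was 41.1% of the exonic length of Pex11g, 35.0% of that of Nudt19, 31.1% of that of Hacl1 and 28.3% of that of Pex14. For Pex11g, Nudt19 and Pex14 the other gene lies on the opposite strand. For Hacl1 it lies on the same strand, where counting by strand would not separate the genes.

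Ratios of genes within a library do not depend on how libraries are scaled, and 7 were computed on counts divided by exonic length. Hao2 over Hao1 was 0.00349, 0.00414 and 0.000673 in senescent libraries, against 0.204, 0.0893 and 0.221 in healthy libraries. Pex11a over Pex11g was 0.575, 0.474 and 0.581 in senescent libraries, against 0.898, 1.93 and 2.14 in healthy libraries. Thus Pex11a stood below its paralog in each senescent library and above it in 2 of the 3 healthy ones. Abcd2 over Abcd3 was 0.0627, 0.0463 and 0.0454 in senescent libraries, against 0.100, 0.106 and 0.132 in healthy libraries. Abcd4 over Abcd3 differed the other way, by 0.89 on the log2 scale. Hacl1 over Phyh was 0.0203, 0.0125 and 0.0122 in senescent libraries, against 0.0405, 0.0345 and 0.0311 in healthy libraries, so the lyase was lower even relative to the hydroxylase. The sum of Phyh, Hacl1 and Pecr over that of the ether lipid genes was 22.4, 21.8 and 17.7 in senescent libraries, against 55.3, 44.7 and 46.3 in healthy libraries. Most of that sum was Phyh, at 1119 TPM (counts per exonic length) in healthy libraries, against 269 for Pecr and 39.9 for Hacl1. Phyh was also the largest part of the genes other than peroxins in the last ratio. The sum of the genes other than peroxins over that of the peroxins averaged 3.46 ± 0.128 in senescent and 5.08 ± 0.522 in healthy libraries (SD, n = 3 each). In all 7 ratios the groups did not overlap, and each had a two-sided exact permutation p of 0.1, the smallest that 3 against 3 libraries allow, and 0.1 after Benjamini-Hochberg adjustment over the 7. The ratios were chosen after these data had been seen, so their separation is a description and adds no support to the calls.

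**Figure D3:**
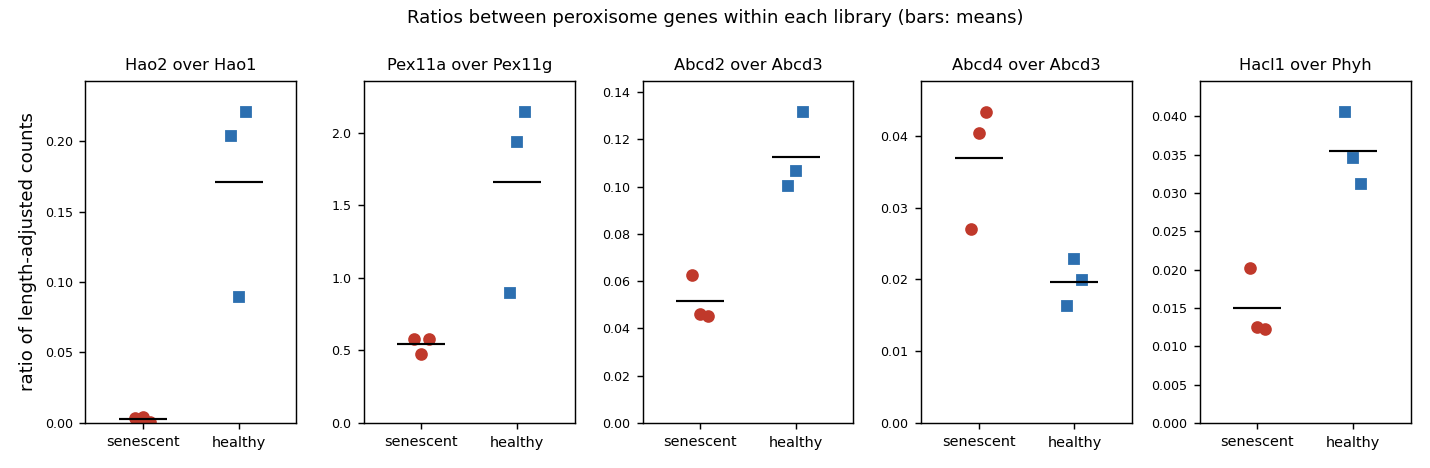
Ratios of length-adjusted counts between related peroxisome genes in each library, with senescent libraries left (red circles), healthy libraries right (blue squares) and bars at the group means; all axes are linear and start at 0. Hao2 over Hao1 lies at 0.00414 or less in senescent libraries, against 0.0893 or more in healthy libraries, and Abcd4 over Abcd3 is the ratio that is higher in senescent libraries.

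Levels per length (TPM over exonic length) gave the order of the genes within a group. In senescent libraries Phyh led with 641 ± 58.2 TPM, followed by Abcd3, Lonp2, Hao1, Pecr and Pipox. Phyh and Abcd3 stood apart from the genes ranked below them, whereas Lonp2, Hao1 and Pecr each overlapped with the gene ranked next, so the order of these neighbours is not resolved. In healthy libraries Phyh led with 1119 ± 95.3 TPM, followed by Pecr at 269 ± 48.4 TPM, Pipox at 194 ± 14.0 TPM and Abcd3 at 149 ± 24.0 TPM (SD, n = 3 each). Phyh, Pecr and Pipox did not overlap with the gene ranked below them in healthy libraries, whereas Abcd3, Lonp2 and Hao1 overlapped in turn. With the length of the longest transcript in place of all exons, Abcd3 at 236 TPM came before Pipox at 202 TPM in healthy libraries. Hao2 ranked 29 of 31 in senescent libraries and 19 of 31 in healthy libraries, and Hacl1 22 and 13.

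**Figure D4:**
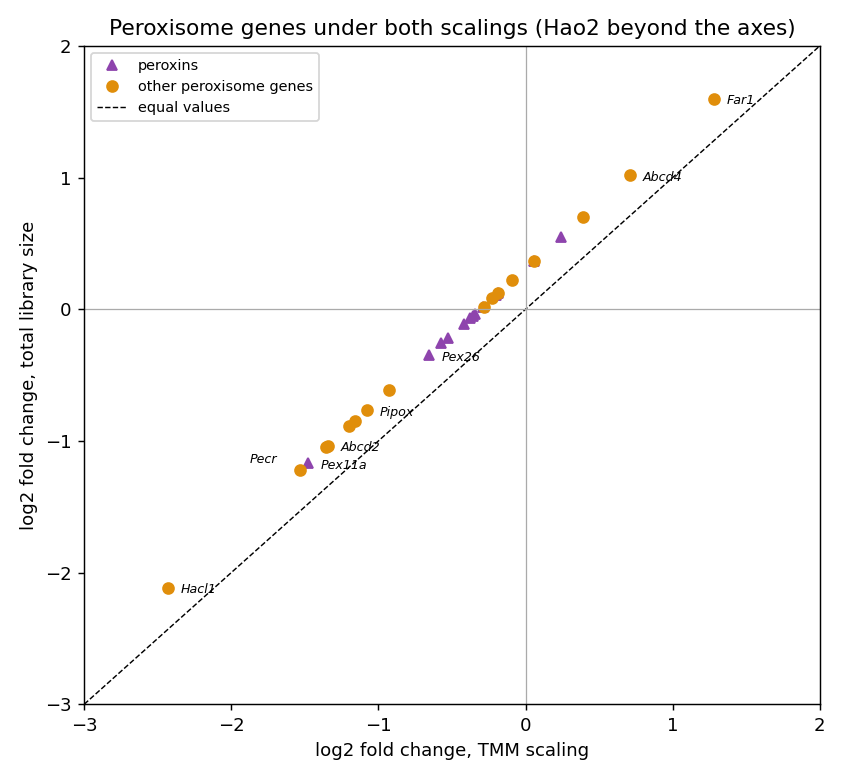
Log2 fold change, senescent minus healthy, under TMM scaling (x axis) and under total library size (y axis), with triangles for peroxins, circles for the remaining genes and a dashed line of equal values; Hao2 lies beyond the axes. All points lie above the line, and small negative values such as that of Hao1, -0.29 under TMM and 0.02 under total library size, cross 0.

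Peroxisomal genes outside the 31 were read from companion lists, beside 20.7% of all tested genes lower and 20.4% higher. Of 15 tested further peroxins and membrane proteins 6 fell and 2 rose, with a median log2 fold change of -0.34, and 4 were higher with total library size. The largest rise was that of Slc25a17, a peroxisomal carrier of CoA, FAD and NAD, with 289, 287 and 331 CPM in senescent libraries, against 49.4, 47.1 and 39.4 CPM in healthy libraries. Its log2 fold change was 2.74 ± 0.14 (edgeR adjusted p = 4.2e-06), and Acbd5, which tethers peroxisomes to the endoplasmic reticulum, also rose, by 0.63 ± 0.13 on the log2 scale (edgeR adjusted p = 0.0049). The membrane proteins Mpv17l and Pxmp2 fell by 1.32 and 1.299 on the log2 scale. Of 18 beta-oxidation genes 14 fell, with a median of -0.71, but 9 without senescent replicate 3 and 9 with total library size. Among them Acsl1, an acyl-CoA synthetase, averaged 283 ± 35.9 CPM in senescent and 853 ± 87.9 CPM in healthy libraries, and Ehhadh, the bifunctional enzyme, averaged 149 ± 23.9 CPM in senescent and 375 ± 18.8 CPM in healthy libraries (SD, n = 3 each). Of 18 remaining matrix enzymes 10 fell and 1 rose, with a median of -0.61. Crat, the carnitine acetyltransferase, averaged 10.2 ± 2.58 CPM in senescent and 61.8 ± 8.45 CPM in healthy libraries, and the polyamine oxidase Paox fell by 1.26 on the log2 scale. The gene that rose was Hsdl2, at 195 ± 5.96 CPM in senescent and 85.9 ± 4.73 CPM in healthy libraries (SD, n = 3 each).

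Neighbouring pathways were read in the same way, again beside 20.7% of all tested genes lower and 20.4% higher. Agxt is counted here and also among the remaining matrix enzymes above. Of 6 genes that handle glyoxylate and oxalate 3 fell, among them Prodh2, the hydroxyproline dehydrogenase, with 71.9 ± 15.4 CPM in senescent and 246 ± 59.5 CPM in healthy libraries, and Agxt, the peroxisomal alanine-glyoxylate transaminase, with 171 ± 24.3 CPM in senescent and 376 ± 80.7 CPM in healthy libraries (SD, n = 3 each). Of 8 tested ether lipid genes that act outside the peroxisome 4 fell, among them the phosphotransferases Chpt1 and Cept1, by 1.15 and 0.90 on the log2 scale. Of 24 genes that PPAR-alpha is known to activate outside the peroxisome 18 fell and 1, Ucp2, rose, with a median log2 fold change of -0.90. The call of Ucp2 was lost without senescent replicate 1, without senescent replicate 3, without healthy replicate 1 and without healthy replicate 3. The fatty acid binding protein Fabp1 averaged 409 ± 191 CPM in senescent and 2940 ± 546 CPM in healthy libraries (SD, n = 3 each), and the mitochondrial thiolase Hadhb fell by 0.94 on the log2 scale. Of 11 genes for PPAR-alpha, its paralogs Ppard and Pparg, their RXR partners and cofactors 4 fell, and 2 without senescent replicate 3. Ppargc1b and Pparg fell by 2.31 and 0.99 on the log2 scale. Of 18 mitochondrial genes 7 fell, with a median of -0.32, among them Sdha and Lonp1, and 4 without senescent replicate 2, 3 without senescent replicate 3 and 1 with total library size, under which 2 were higher.

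**Figure D5:**
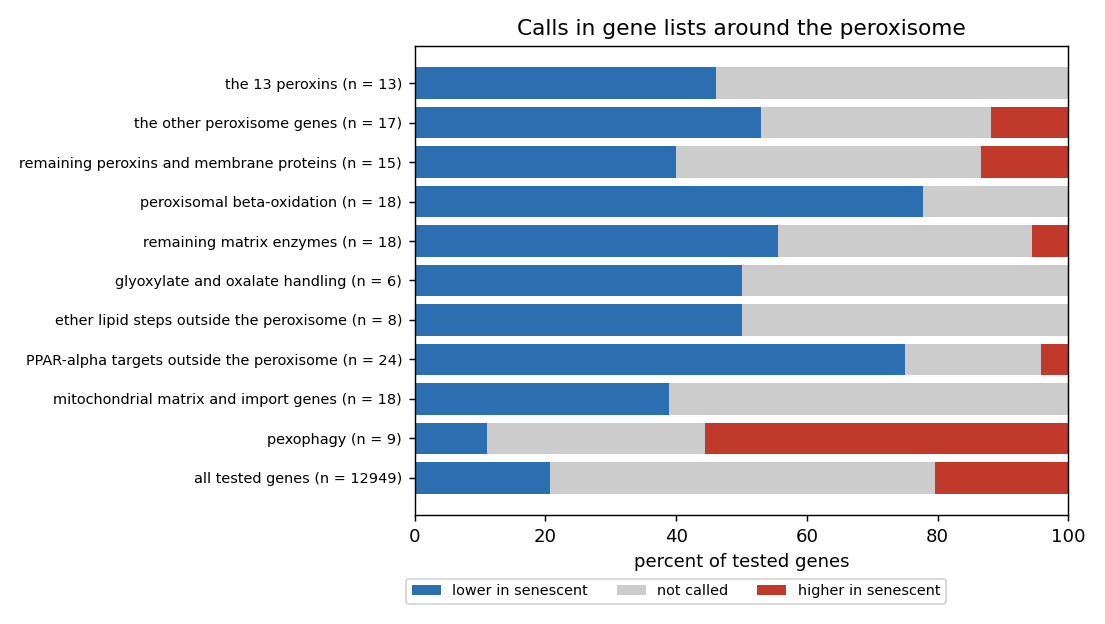
Percent of the tested genes of each list called lower (blue), not called (grey) and called higher (red) in senescent libraries, with the number tested beside each name. The beta-oxidation genes, 14 of 18 lower, and the PPAR-alpha targets, 18 of 24 lower, have the longest blue bars, against 20.7% of all tested genes.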

How the data were processed

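The authors deposited whole-number read counts per gene, not normalized, for 6 libraries, and the submitters' processing notes name FastQC, MultiQC 1.3, cutadapt 1.16, STAR 2.7.1a, featureCounts, DESeq2 1.34.0 and the build GRCm38. Libraries were poly-A selected with a directional kit, per the labels' protocols. The sources used here do not give the annotation release or the strand setting. A column whose code differs in a single letter from the labels was taken as healthy replicate 2. Nothing says that replicates are separate animals, so p-values measure the spread between samples, which may be technical. Genes that passed filterByExpr with a minimum count of 10 and a minimum total of 15 numbered 12949. They were scaled by TMM and tested by the two-sided quasi-likelihood F test of edgeR 4.0.16 (R 4.3.3), and a gene was called where its p, adjusted over all 12949 by the method of Benjamini and Hochberg, was under 0.05. The test was tried on simulated counts. CPM are counts over the TMM-scaled library size, and TPM use exonic lengths of GENCODE M21. Alternatives were DESeq2 1.42.0, limma-voom (limma 3.58.1), other scalings and filters, a threshold of 0.01, a block on replicate number, an exonic length trend removed and each library left out. The ratios within libraries were chosen after seeing the data. The genes and companion lists were chosen with earlier results of these data known. From each companion list the text names up to 2 higher and 2 lower genes with the smallest p. Protein sequences were not used here. Some results of the companion lists and marker genes are not reported here.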

Additional observations from a re-analysis of the deposited data

How the results depend on the processing

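The 10 falls of Hao2, Hacl1, Pecr, Pex11a, Mlycd, Abcd2, Phyh, Nudt7, Pipox and Nudt19 kept their call under all 16 alternatives. With total library size, 4861 genes were higher and 1285 lower, 4 peroxisome genes were higher and their median was -0.0568, and the log2 fold change took a positive sign in Pex7 (0.12), Pex13 (0.11), Pex19 (0.0197), Abcd3 (0.0844), Hao1 (0.0185), Lonp2 (0.12) and Gnpat (0.22), none of them called. At an adjusted p under 0.01, 1570 genes were higher and 1498 lower, and of the peroxisome genes 0 were higher and 12 lower. At an unadjusted p under 0.05 in edgeR, 2 peroxisome genes were higher and 18 lower, which was not counted over all tested genes. DESeq2 and limma-voom each called 2 peroxisome genes higher and 15 lower at an adjusted p under 0.05. Of all genes DESeq2 called 2751 higher and 2812 lower, and limma-voom 2648 higher and 2644 lower. With a mean of at least 1 CPM 1 peroxisome gene was higher, since Far1 was not tested, and with the exonic length trend removed 1 was higher and Ddo turned to -0.14; the cause was not tested. With one library left out, 1836 to 2691 genes were higher and 1489 to 2789 lower, 1 to 2 peroxisome genes higher and 11 to 15 lower, their median ran from -0.41 to -0.29, and Ddo ran from -0.0699 to 0.232 and Pex11g from -0.024 to 0.224. Same-numbered libraries had correlations of 0.25, -0.20 and 0.02, and differently numbered ones ran from -0.39 to 0.39. With 3 libraries per group, centred within each group, such values cannot show whether the numbers pair the samples. With the replicate number as a block, 2576 genes were higher and 2625 lower, and of the peroxisome genes 2 were higher, with Agps gained and Far1 lost, and 16 lower, with Pex16 gained. Low depth limits Far1, with at most 50 counts in a library, and Hao2 in senescent libraries.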

Other observations

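Of 9 tested genes of pexophagy, the removal of peroxisomes by autophagy, 5 rose and 1 fell (edgeR adjusted p under 0.05), with a median log2 fold change of 0.36, while 20.4% of all tested genes rose. The other 3, among them Nbr1 at -0.09, were not called. The sum of the list was 981 ± 49.6 CPM in senescent and 981 ± 138 CPM in healthy libraries (SD, n = 3 each). The list was not sorted by whether a gene promotes or hinders this removal, so the count gives no direction for the process. Tnks2, a tankyrase, had 81.1, 82.5 and 94.0 CPM in senescent libraries, against 31.6, 41.7 and 41.7 CPM in healthy libraries, and Hif1a averaged 46.2 ± 4.38 CPM in senescent and 29.3 ± 5.47 CPM in healthy libraries (SD, n = 3 each). The autophagy receptor Sqstm1 fell by 0.42 on the log2 scale (edgeR adjusted p = 0.025), a call lost without senescent replicate 2, without senescent replicate 3, without healthy replicate 2 and with total library size. The number that rose was 3 without senescent replicate 2, without senescent replicate 3, without healthy replicate 1 or without healthy replicate 2. The difference between this list and the peroxisome genes was not tested.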
